A study of Mus musculus with 2 samples.

Results

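The 10 genes described here encode the constant parts of the T cell receptor and the CD3 chains that carry its signal. They are Trac, Trbc1, Trbc2, Trdc, Tcrg-C1, Tcrg-C4, Cd3d, Cd3e, Cd3g and Cd247, all found by symbol among the 32285 genes of the count tables. The study sorted cells carrying CD45, found on leukocytes, and CD90.2, the Thy1 protein found on T cells and on part of the innate lymphocytes, from tumours of C57BL/6 mice. One single-cell 3′ library was labelled WT and the other Dapl1-KO. Ages, sexes, the tumour and the number of animals per library were not given in the sources used here, nor was how the Dapl1 allele was made. With 1 library per label, differences between them can be neither tested nor checked against replicates. All intervals are exact 95% intervals that cover counting error only.

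A T cell receptor is a pair of variable chains, alpha with beta on most T cells and gamma with delta on the rest. A rearranged gene joins a variable segment to a constant segment, so the constant genes report which chain a cell transcribes, whatever its variable segment. The receptor has almost no cytoplasmic tail of its own and signals through CD3 delta, epsilon and gamma and through the zeta chain encoded by Cd247, whose tyrosine motifs are phosphorylated when antigen is bound. Natural killer (NK) cells have no rearranged receptor but use the zeta chain with Fc and natural cytotoxicity receptors. T cells of tumours are often described by PD-1 (Pdcd1) and TIM-3 (Havcr2), receptors that are high on chronically stimulated CD8 cells.

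Cells were placed in gates by messages of lineage genes, none of which is among the 10. CD8 cells had Cd8b1 without Cd4 or Foxp3, CD4 conventional cells had Cd4 without Cd8a, Cd8b1, Foxp3 or Zbtb16, and regulatory T cells had Foxp3 without Cd8a or Cd8b1. The other 3 gates had none of Cd8a, Cd8b1, Cd4 and Foxp3. Innate-like T cells had Zbtb16, the factor of NKT and related cells, without the NK gene Ncr1. Gamma-delta T cells had at least 2 of 11 genes such as Sox13, Cd163l1 and delta or gamma variable segments. NK cells had Ncr1 and at least 1 of 7 other NK genes, without Zbtb16. In the libraries labelled WT and Dapl1-KO these gates held 4001 and 4935 CD8 cells, 557 and 554 CD4 conventional cells, 627 and 731 regulatory T cells, 55 and 40 innate-like T cells, 112 and 100 gamma-delta T cells, and 403 and 532 NK cells. Another 2956 and 2751 cells fell neither in these gates nor in those of macrophage-like and melanocyte-like cells. Levels are UMI counts summed over a gate and divided by the gate total (CPM, counts per 1000000).

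The libraries differed in ways that bear on every comparison between them. They held 154408101 and 206322042 UMIs over 16673 and 19662 barcodes, of which 13132 barcodes occurred in both, and the smaller copy of each was left out. Xist or Tsix without a Y-linked message was seen in 73.9% of kept cells of the library labelled WT, and the reverse in 10.9%. In the library labelled Dapl1-KO those shares were 0.0887% and 69.6%, so the sex of most cells followed the label, and over all cells sex and label cannot be told apart. The targeted gene did not separate the labels, with 2605 and 2614 Dapl1 counts in CD8 cells (40.9 and 30.8 CPM), which checks the label only if the counted 3′ end was deleted. In bulk sums such as these, fewer expressing cells and fewer messages per cell are told apart only by the shares of cells with a UMI given beside the levels.

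In both libraries the alpha and CD3 genes followed the gates. Trac, the alpha constant gene, was highest in regulatory T cells, at 649.5 CPM for WT and 806 CPM for Dapl1-KO, the order in which paired values are given throughout. It stood at 524 and 685 CPM in CD4 conventional cells and at 458 and 549.6 CPM in CD8 cells. It was lower in innate-like T cells (125 and 246 CPM) and gamma-delta T cells (71.3 and 51.9 CPM). NK cells had the least, 36.0 and 45.9 CPM. The order of the 6 gates was the same in both libraries, and the highest level was 18.0 and 17.6 times the lowest. Neighbouring gates whose intervals overlapped were gamma-delta and innate-like T cells in the library labelled WT, and NK and gamma-delta T cells in the library labelled Dapl1-KO.

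The CD3 genes stand in a cluster on mouse chromosome 9 (GRCm38). Cd3g, on the minus strand from 44969572 to 44980431, and Cd3d, on the plus strand from 44981786 to 44987339, start 1354 bases apart and are read in opposite directions. Cd3e lies beyond Cd3d on the minus strand, from 44998740 to 45009627. Cd247 lies apart on chromosome 1, from 165788681 to 165877277. Cd3d had 867 and 1022 CPM in CD8 cells, 777 and 950.3 CPM in CD4 conventional cells and 885 and 1067 CPM in regulatory T cells. Its level was 521 and 509 CPM in gamma-delta T cells, 261 and 470.5 CPM in innate-like T cells, and 114 and 108 CPM in NK cells. Cd3e followed, from 369 and 479 CPM in CD8 cells to 29.9 and 32.0 CPM in NK cells, and so did Cd3g, from 855 and 1343 CPM to 78.5 and 80.0 CPM. All 3 were lowest in NK cells and second lowest in innate-like T cells in both libraries.

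Cd247 was spread more evenly. It had 108 and 115 CPM in gamma-delta T cells, 106 and 113 CPM in CD4 conventional cells, 72.8 and 86.3 CPM in regulatory T cells and 71.6 and 71.2 CPM in CD8 cells. NK cells had 36.3 and 61.7 CPM. Innate-like T cells had 25.0 and 77.2 CPM, from 9 and 22 counts. Its highest level was 4.31 and 1.86 times its lowest, against 12.3 and 15 times for Cd3e. Intervals of gamma-delta and CD4 conventional cells overlapped in both libraries.

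**Figure D1:**
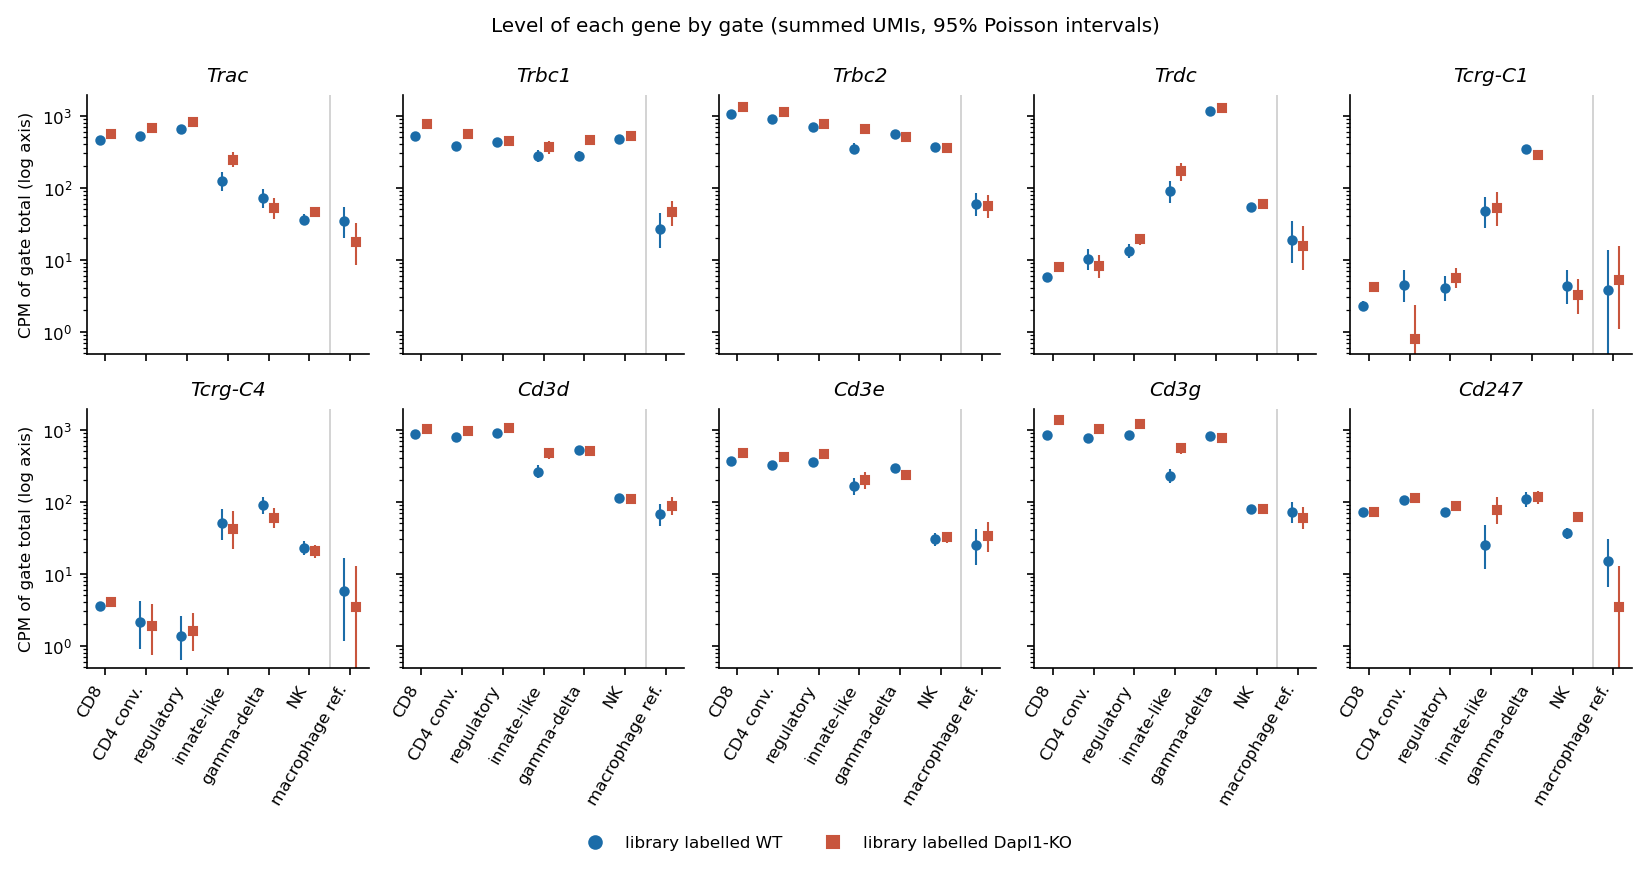
Each panel plots 1 gene: the vertical log axis is CPM of the gate total, the horizontal axis lists the 6 lymphocyte gates and, right of the line, the macrophage reference, with circles for the library labelled WT, squares for the library labelled Dapl1-KO and bars for 95% Poisson intervals. Trac runs from 649.5 and 806 CPM in regulatory T cells to 36.0 and 45.9 CPM in NK cells, whereas Trbc1 in NK cells (479.9 and 518 CPM) lies within the range of the T cell gates.

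The gamma and delta genes among the members were highest in gamma-delta T cells in both libraries. Trdc, the delta constant gene, lies on chromosome 14 from 54142851 to 54148868, upstream of Trac (54220521 to 54224206) with 71652 bases between them. In the alpha locus, joining of an alpha segment removes the delta genes from that chromosome. Trdc had 1156 CPM (1074 to 1243) and 1292 CPM (1211 to 1377) in gamma-delta T cells, and 5.68 and 7.87 CPM in CD8 cells, a difference of 203-fold and 164-fold. The order of the gates was the same in both libraries, with innate-like T cells (88.8 and 169 CPM) and NK cells (53.8 and 60.3 CPM) next. The gate used delta and gamma variable segments, which sit on the same transcripts as these constant genes, so a high level there follows in part from how the cells were chosen.

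Tcrg-C1 and Tcrg-C4 are 2 of the gamma constant genes on chromosome 13, at 19214103 to 19217024 and 19344558 to 19352756. Tcrg-C1 had 347 and 285 CPM in gamma-delta T cells, 47.2 and 52.7 CPM in innate-like T cells and at most 5.65 CPM in the other gates. Tcrg-C4 had 88.7 and 60.1 CPM in gamma-delta T cells and 49.9 and 42.1 CPM in innate-like T cells, and the intervals of these gates overlapped in both libraries. In NK cells the 2 genes parted: Tcrg-C4 had 23.0 and 20.4 CPM and Tcrg-C1 4.36 and 3.25 CPM. Tcrg-C1 is near-identical to Tcrg-C2 (96.1% of 909 aligned transcript bases), so reads could be split between them, while Tcrg-C4 matched Tcrg-C1 at 72.4% of 896 aligned bases.

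Delta messages without alpha were the most common pattern in gamma-delta cells, which follows in part from the variable segments that chose them. Of these cells, 67.0% and 60% had a Trdc UMI without Trac, 17.9% and 20% had both, and 6.25% and 5% had Trac alone. Trdc occurred with Tcrg-C1 or Tcrg-C4 in 68.8% and 63.0%. In the innate-like gate, 34.5% and 52.5% of cells had Trac without Trdc, 20% and 25% had Trdc without Trac and 40% and 20% had neither. The NK gene Klrb1c was seen in 23.6% and 42.5% of these cells. Both alpha and delta messages occurred in this gate. The type 2 innate lymphoid gene Il1rl1 had 0 counts in it in both libraries, Il13 had 0 and 1 counts and Areg 2 in each, while Gata3 had 77.7 and 52.7 CPM, Rora 322 and 316 CPM and Il7r 583 and 358 CPM, genes that T cells share with innate lymphoid cells. The part of innate lymphoid cells in this gate was not tested.

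By level, Trbc1 did not set NK cells apart from the T cell gates, whereas Trbc2 was lower in NK than in CD8 cells. Trbc1 had 479.9 CPM (457 to 504) and 518 CPM (497 to 540.3) in NK cells, against 521 and 767 CPM in CD8 cells. Trbc2 had 369.8 and 354 CPM in NK cells, against 1055 and 1327 CPM in CD8 cells. A Trbc1 UMI was present in 86.1% and 92.3% of NK cells and in 62.1% and 75.1% of CD8 cells. After each cell was thinned to 3000 UMIs, Trbc1 was found in 69.3% (64.5 to 73.8) and 74.3% (70.3 to 78.0) of NK cells, still above the 48.4% and 61.0% of CD8 cells. Trbc2 went the other way, with 51.5% and 47.8% of NK cells against 84.9% and 92.9% of CD8 cells.

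T cell messages in macrophages were taken as a reference for free RNA. How much of them was free RNA was not tested. The wide macrophage gate held T cell messages in most cells (a Cd3d, Cd3e or Cd3g UMI in 87.8% and 83.6%), so a stricter set of 31 and 53 cells was used, with at least 7 of 10 macrophage genes and no Cd8a, Cd8b1, Cd4, Foxp3 or Ncr1. Even these had such a UMI in 61.3% and 50.9% of cells, at median depths of 12987 and 10411 UMIs against 7042 and 6981.5 in NK cells. At 3000 UMIs per cell, Trbc1 was found in 3.33% (0.0844 to 17.2) and 10.0% (3.33 to 21.8) of them and Trbc2 in 6.67% and 8%, all below the NK shares with no overlap of intervals. Trdc was found in 14.2% (10.9 to 18.1) and 12.9% (10.1 to 16) of NK cells, against 3.33% (0.0844 to 17.2) and 2% (0.0506 to 10.6) in macrophages, and intervals overlapped. By level Trdc was above the macrophage reference in both libraries, with 53.8 against 19.0 CPM (log2 ratio 1.5, 0.59 to 2.59) and 60.3 against 15.7 CPM (1.94, 0.99 to 3.09).

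For Trac and the CD3 delta, epsilon and gamma genes the shares in NK cells and macrophages lay closer together. Cd3d was found in 18.5% and 19.3% of NK cells and 16.7% and 18.0% of macrophages. Cd3g was found in 15.2% and 15.1% of NK cells and 16.7% and 10.0% of macrophages, and Cd3e in 6.35% and 7.18% of NK cells and 0% (0 of 30 cells, up to 11.6%) and 10.0% of macrophages. Trac was at 10.9% and 11.5% in NK cells, against 10.0% (2.11 to 26.5) and 2% (0.0506 to 10.6). For these 4 genes the intervals of the shares in NK cells and macrophages overlapped in both libraries. By level, 2 of the 8 comparisons with the macrophage reference had intervals above 0, for Cd3d in the library labelled WT (114 against 66.3 CPM, log2 ratio 0.78, 0.28 to 1.32) and for Trac in the library labelled Dapl1-KO (45.9 against 17.4 CPM, 1.4, 0.49 to 2.48).

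NK cells with no CD3 or alpha message still had beta constant messages. Of the NK cells, 189 and 254 (46.9% and 47.7%) had no UMI of Trac, Cd3d, Cd3e or Cd3g. Among these, Trbc1 was present in 87.8% (82.3 to 92.1) and 91.3% (87.2 to 94.5), Trbc2 in 63.5% and 56.3%, Trdc in 17.5% and 18.1% and Cd247 in 22.2% and 33.9%. The Trbc1 shares of all NK cells were 86.1% and 92.3%, given above. Over all NK cells, the 8 NK genes used for the gate were each at 20 CPM or more in both libraries. Their summed level was 1732 and 1809.6 CPM, against 90.3 and 102 CPM in CD8 cells, which follows in part from how the cells were chosen. They were not summed over the cells without CD3 and alpha messages alone.

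**Figure D2:**
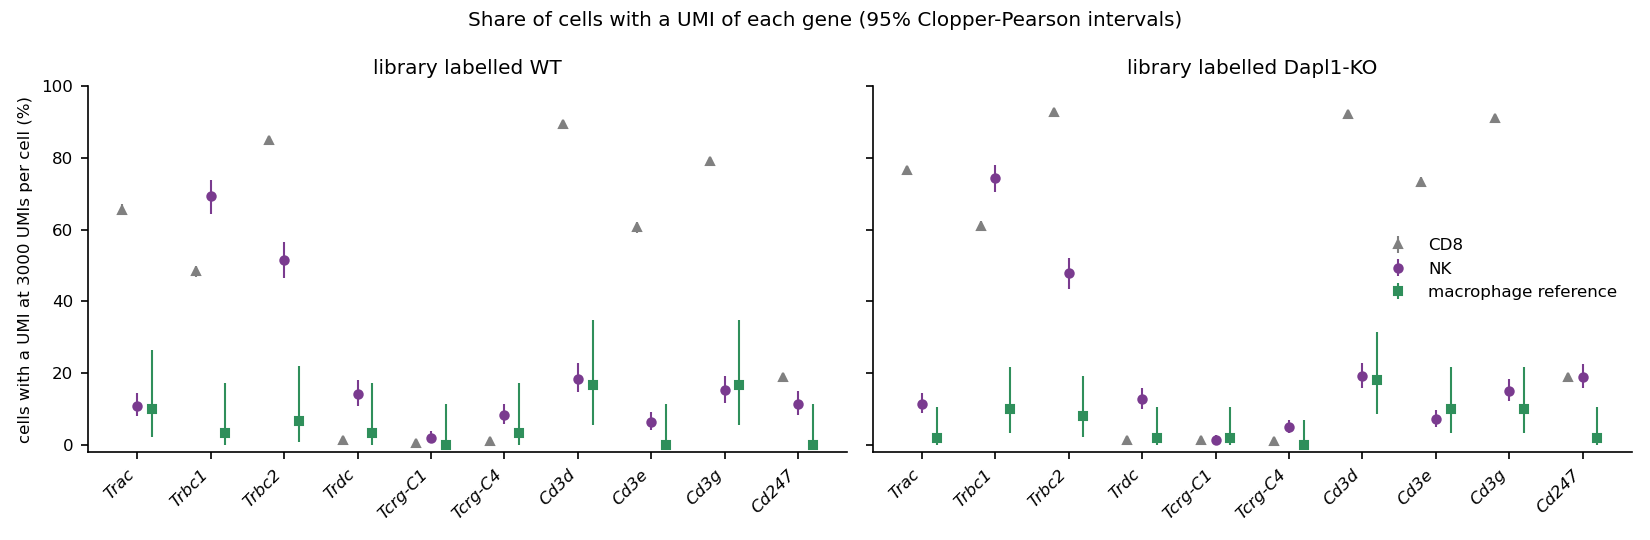
The vertical axis is the share of cells with at least 1 UMI after thinning to 3000 UMIs per cell, the horizontal axis lists the 10 genes, and each panel shows 1 library; triangles are CD8 cells, circles NK cells, squares the macrophage reference and bars 95% Clopper-Pearson intervals. For Trbc1, NK cells (69.3% and 74.3%) lie above CD8 cells (48.4% and 61.0%), and for Cd3d NK cells and macrophages lie together.

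The 2 beta constant genes can be told apart at their 3′ ends. Trbc1 (41538218 to 41539881) and Trbc2 (41546730 to 41548352) lie on the plus strand of chromosome 6, 6848 bases apart. Over the 518 annotated coding bases they share 495 (95.6%), and in the first exon 374 of 375. The last 143 coding bases, which encode the end of the chain with its membrane span and short tail, hold 22 of the 23 differences. They are printed 5′ to 3′ from GRCm38, joined over the later exons (41539114 to 41539662 and 41547610 to 41548178), with the differing bases in capitals, because they show where a read can name its gene.
Trbc1: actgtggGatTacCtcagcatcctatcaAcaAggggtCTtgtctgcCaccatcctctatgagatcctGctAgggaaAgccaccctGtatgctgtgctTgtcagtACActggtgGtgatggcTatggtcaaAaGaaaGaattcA
Trbc2: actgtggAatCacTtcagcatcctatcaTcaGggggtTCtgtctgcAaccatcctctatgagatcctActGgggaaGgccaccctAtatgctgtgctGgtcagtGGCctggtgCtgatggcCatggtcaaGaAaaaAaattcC
After these coding bases the annotated transcripts run on for 219 and 174 bases and share 0 stretches of 15 bases, so 3′ reads that reach these ends differ between the genes.

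The balance of the 2 genes differed between gates. Trbc1 made up 33.1% (32.8 to 33.4) of Trbc1 and Trbc2 counts in CD8 cells of the library labelled WT and 36.6% (36.4 to 36.9) in those of the library labelled Dapl1-KO. It made up 29.6% and 33.1% in CD4 conventional cells and 38.0% and 37.0% in regulatory T cells. In NK cells the share was 56.5% (54.7 to 58.3) and 59.4% (57.8 to 61.0), the highest of the 6 gates in both libraries. Gamma-delta T cells had 33.1% (29.1 to 37.3) and 47.5% (43.8 to 51.2), and innate-like T cells 44.2% (37.7 to 51.0) and 35.9% (30.3 to 41.7). The 2 messages need not be captured equally well, so the share compares gates and not the genes.

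Many CD8 cells held both messages. At 3000 UMIs per cell, 40.2% and 56.7% of CD8 cells had both, 44.7% and 36.2% had Trbc2 alone, 8.23% and 4.35% had Trbc1 alone and 6.88% and 2.76% had neither. The share with both was close to the product of the 2 single shares (41.1% and 56.7%). A rearranged beta chain uses 1 constant gene, and unrearranged copies can be transcribed as well, so detection of both is not a count of cells with 2 chains. Among CD8 cells with at least 10 Trbc1 and Trbc2 UMIs (2485 and 3985 cells), 39.2% and 27.9% had under 10% Trbc1, 59.7% and 71.3% lay between 10% and 90%, and 1.17% and 0.803% had over 90%.

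The shape differed in NK cells. Of the 103 and 133 NK cells with that many beta UMIs, 2.91% and 9.02% had under 10% Trbc1, 87.4% and 77.4% lay between, and 9.71% and 13.5% had over 90%. The median Trbc1 share was 50.0% in both, against 29.2% and 34.4% in CD8 cells. Regulatory T cells had 27.6% and 25.8% of cells under 10% and 4% and 1.96% over 90%, and CD4 conventional cells had 40.6% and 27.6% under 10%.

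**Figure D3:**
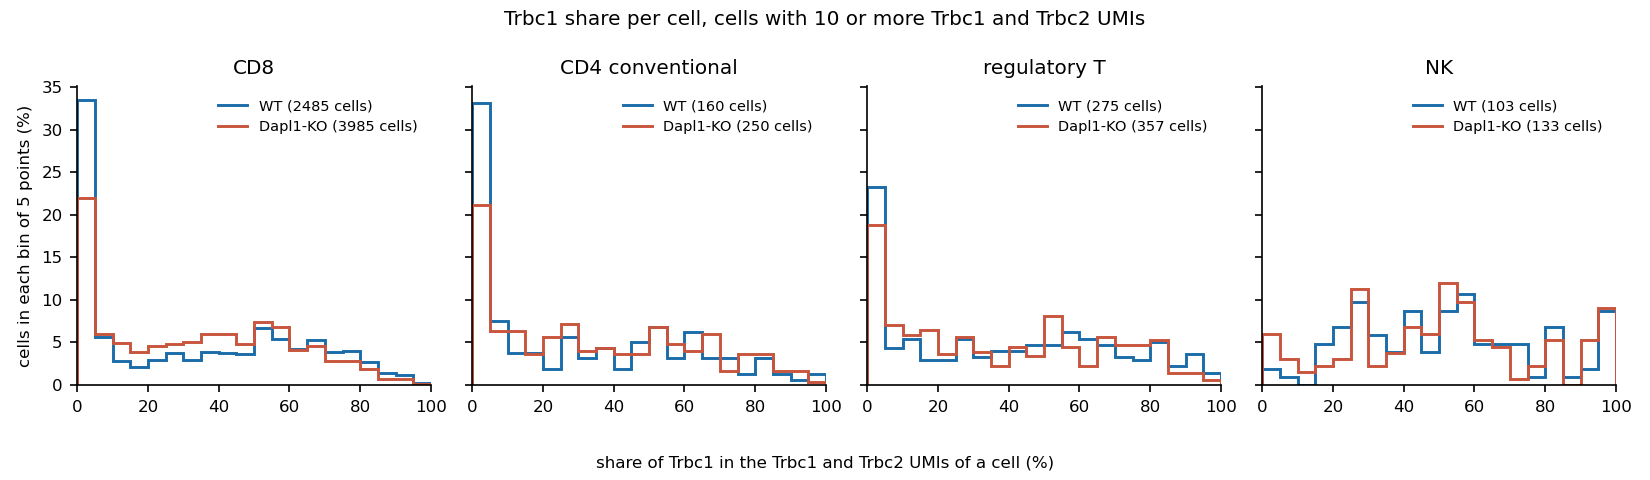
The horizontal axis is the share of Trbc1 in a cell's Trbc1 and Trbc2 UMIs in bins of 5 percentage points, the vertical axis the share of cells in each bin, for cells with 10 or more such UMIs; blue outlines are the library labelled WT and red outlines the library labelled Dapl1-KO. The 3 T cell gates shown have their highest bin at 0 to 5% (33.5% of CD8 cells of the library labelled WT), and the NK gate does not (1.94% and 6.02%).

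The next comparison sets the libraries side by side, the question the genotype labels pose. A gene was counted as higher or lower when it reached 20 CPM in a library and its log2 ratio was beyond 0.32 in size, the fold limit used throughout. In CD8 cells, 7 of the 10 genes reached that level, and in the library labelled Dapl1-KO 4 were higher and 0 lower; of all 4578 genes at that level, 14.3% were higher and 7.34% lower. Cd3g had 855 and 1343 CPM, 1.57-fold higher (log2 ratio 0.65, 0.64 to 0.67). Trbc1 had 521 and 767 CPM, 1.47-fold higher (0.56, 0.54 to 0.58). Cd3e was 1.30-fold higher (0.38, 0.36 to 0.40) and Trbc2 1.26-fold higher (0.33, 0.32 to 0.35).

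The other 3 stayed within the limit. Trac was 1.20-fold higher (0.26, 0.24 to 0.29) and Cd3d 1.18-fold higher (0.24, 0.22 to 0.25). Cd247 had 71.6 and 71.2 CPM (log2 ratio -0.0089, -0.065 to 0.047). The median log2 ratio of the 7 was 0.33, against 0.063 over all 4578 genes. Shares of CD8 cells moved the same way: at 3000 UMIs per cell, Cd3g was found in 79.1% and 91.1% of cells, Trac in 65.6% and 76.6%, Cd3e in 60.7% and 73.3%, and Cd247 in 18.8% and 19.0%.

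Cells with Y-linked and no Xist or Tsix messages gave a comparison among cells of like sex-linked messages. With these 605 and 3684 of the 4001 and 4935 CD8 cells, 4 genes were higher and 0 lower. Log2 ratios were 1.13 for Cd3g, 0.70 for Cd3e, 0.67 for Trbc1 and 0.33 for Trac, while Trbc2 was at 0.049. Whether the 605 cells stand for the other CD8 cells of their library was not tested. With all deposited barcodes, 2 were higher (Cd3g at 0.49 and Trbc1 at 0.45), and with scaling by the median ratio of all genes, also 2. The share of all genes past the limit was not counted in these settings, so these counts have no background beside them. Genes of macrophages and melanocytes in the CD8 gate were low. The 10 macrophage genes summed to 12.1 and 15 CPM, none at 20 CPM, and the 7 melanocyte genes to 3.49 and 9.31 CPM. The 8 NK genes summed to 90.3 and 102 CPM, with 1 and 2 of them at 20 CPM. Most of these sums was Eomes, with 58.9 and 47.6 CPM and a UMI in 40.4% and 38.5% of CD8 cells. Eomes was lower in the library labelled Dapl1-KO, so the other NK genes together differed more than the sums. The part of all these genes in the differences was not tested.

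Cd3g and Cd3d are read from neighbouring starts. The 250 bases before each start are printed from the RefSeq promoter table (GRCm38.p6), on the strand of the gene, because they lie within the short stretch between the 2 genes (44980432 to 44980681 for Cd3g, 44981536 to 44981785 for Cd3d). Capitals mark CANNTG, the core bound by E proteins such as those that act in T cell development, which reads the same on both strands. No other motif was searched.
Cd3g: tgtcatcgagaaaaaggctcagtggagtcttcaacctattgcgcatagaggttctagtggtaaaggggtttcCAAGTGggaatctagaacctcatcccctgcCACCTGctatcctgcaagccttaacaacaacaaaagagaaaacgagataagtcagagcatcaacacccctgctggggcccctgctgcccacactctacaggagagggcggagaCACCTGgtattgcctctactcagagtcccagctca
Cd3d: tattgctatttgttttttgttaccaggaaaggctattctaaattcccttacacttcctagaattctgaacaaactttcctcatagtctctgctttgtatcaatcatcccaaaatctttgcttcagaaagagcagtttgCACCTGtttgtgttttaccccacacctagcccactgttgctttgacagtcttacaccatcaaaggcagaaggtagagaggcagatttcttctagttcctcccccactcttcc
Cd3g has 3 such matches, Cd3d 1, Cd3e 1 and Cd247 2, and 66.2% of all 32851 promoters of the same length hold at least 1. A link of the matches to the ratios was not tested. A match is a description of the letters and not a bound site.

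In CD4 conventional cells 7 genes reached 20 CPM, and in the library labelled Dapl1-KO 4 were higher and 0 lower, against 16.2% and 11.2% of all 4778 genes. Trbc1 had 383 and 559 CPM (log2 ratio 0.55, 0.45 to 0.64), Cd3g 764 and 1029.7 CPM (0.43, 0.36 to 0.50), Cd3e 318 and 419 CPM (0.40, 0.29 to 0.51) and Trac 524 and 685 CPM (0.39, 0.30 to 0.47). Trbc2 and Cd3d, at log2 ratios of 0.32 and 0.29, lay just inside the limit, and Cd247 had 0.090. Of Tcrg-C1 there were 17 and 3 counts, which is below the level. Genes of other cells differed with the label in this gate: the 8 NK genes summed to 21.9 and 44.1 CPM, the 7 melanocyte genes to 5.01 and 19.1 CPM, the 10 macrophage genes to 10.3 and 15.9 CPM, Fcer1g had 15.8 and 56.0 CPM and Tyrobp 11.6 and 49.4 CPM. Of the 3 lists no gene reached 20 CPM, and their part in the differences was not tested.

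In regulatory T cells 7 genes reached 20 CPM, and 2 were higher and 0 lower, against 6.65% and 11.4% of all 4839 genes. Cd3g had 836 and 1202 CPM, 1.44-fold higher (0.52, 0.48 to 0.57), and Cd3e 354 and 464 CPM, 1.31-fold higher (0.39, 0.32 to 0.47). With all deposited barcodes 1 gene was past the limit. Trac (0.31), Cd3d (0.27) and Cd247 (0.24) lay inside the limit. The beta genes differed least, with log2 ratios of 0.087 for Trbc1 and 0.14 for Trbc2, so the Trbc1 difference of CD8 and CD4 conventional cells had no like value here. That contrast between gates was not tested. The summed NK genes were 17.8 and 27.2 CPM in this gate, the melanocyte genes 5.78 and 13.7 CPM and the macrophage genes 11.6 and 15.7 CPM, none at 20 CPM, and their part was not tested.

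NK cells gave another set. Of 9 genes at 20 CPM, 2 were higher and 0 lower, against 13.4% and 9.95% of all 4591 genes. The count was 1 with stricter cell filters, as a mean over cells and with median-of-ratios scaling. Cd247 had 36.3 CPM (30.2 to 43.3) and 61.7 CPM (54.5 to 69.5), 1.70-fold higher (log2 ratio 0.76, 0.45 to 1.08), and its share of cells at 3000 UMIs was 11.4% (8.45 to 15) and 19.1% (15.8 to 22.7). Across the 8 alternatives run for NK cells its log2 ratio ran from 0.72 to 1.06. Trac was 1.27-fold higher (0.35, 0.018 to 0.68) on 124 and 198 counts, beside 34.1 and 17.4 CPM in the macrophage reference, and its ratio was -0.46 among the 17 and 349 cells with Y-linked messages and no Xist. Cd3d, Cd3e and Cd3g had log2 ratios of -0.076, 0.096 and 0.027, with intervals that include 0. Trbc1 had 0.11 and Trbc2 -0.063. The macrophage genes summed to 11 and 14.4 CPM, the melanocyte genes to 2.62 and 12.1 CPM and the 11 gamma-delta genes to 32.0 and 43.6 CPM, and their part was not tested.

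The small gates had wide intervals. In innate-like T cells all 10 genes reached 20 CPM and 7 were higher and 0 lower, but 29.1% of all 5852 genes were higher and 42.5% lower there, in sums of 360385 and 284806 UMIs. Cd3g had 82 and 156 counts (228 and 548 CPM, log2 ratio 1.27, 0.87 to 1.67) and Trac 45 and 70 (0.98, 0.42 to 1.55). Cd247 had 9 and 22 counts (1.63, 0.45 to 2.93), and Trbc1 changed sign when cells were thinned (0.40, and -0.46 thinned). The summed NK genes in this gate were 297 and 713 CPM, Fcer1g had 300 and 1015 CPM and Tyrobp 191 and 987 CPM. Of its cells, 14.5% and 15% had no Trac, Cd3d, Cd3e or Cd3g UMI. The part of these cells and genes in the ratios was not tested.

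In gamma-delta T cells 1 of 10 genes was higher and 2 lower, against 24.3% and 28.8% of all 5126 genes. Trbc1 had 276 CPM (236 to 319.7) and 463 CPM (415 to 515), 1.68-fold higher (log2 ratio 0.75, 0.48 to 1.02), while Trbc2 had 557 and 512 CPM (-0.12, -0.34 to 0.092). Tcrg-C4 (-0.56, -1.17 to 0.034) and Trac (-0.46, -1.12 to 0.20) were past the limit with intervals that include 0, and Trac was at 0.032 in the wider gate. Trdc had a log2 ratio of 0.16 (0.019 to 0.30) and Tcrg-C1 -0.28 (-0.56 to -0.0010). Cd3d, Cd3e and Cd3g had -0.033, -0.30 and -0.094, so the higher Cd3g of the alpha-beta gates had no like value in this gate. The summed NK genes were 415 and 585 CPM here, Fcer1g had 371 and 691 CPM and Tyrobp 369 and 732 CPM. Klrb1c was seen in 9.82% and 27% of these cells, and 2.68% and 9% had no Trac, Cd3d, Cd3e or Cd3g UMI. The part of these cells and genes in the ratios of this gate was not tested.

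**Figure D4:**
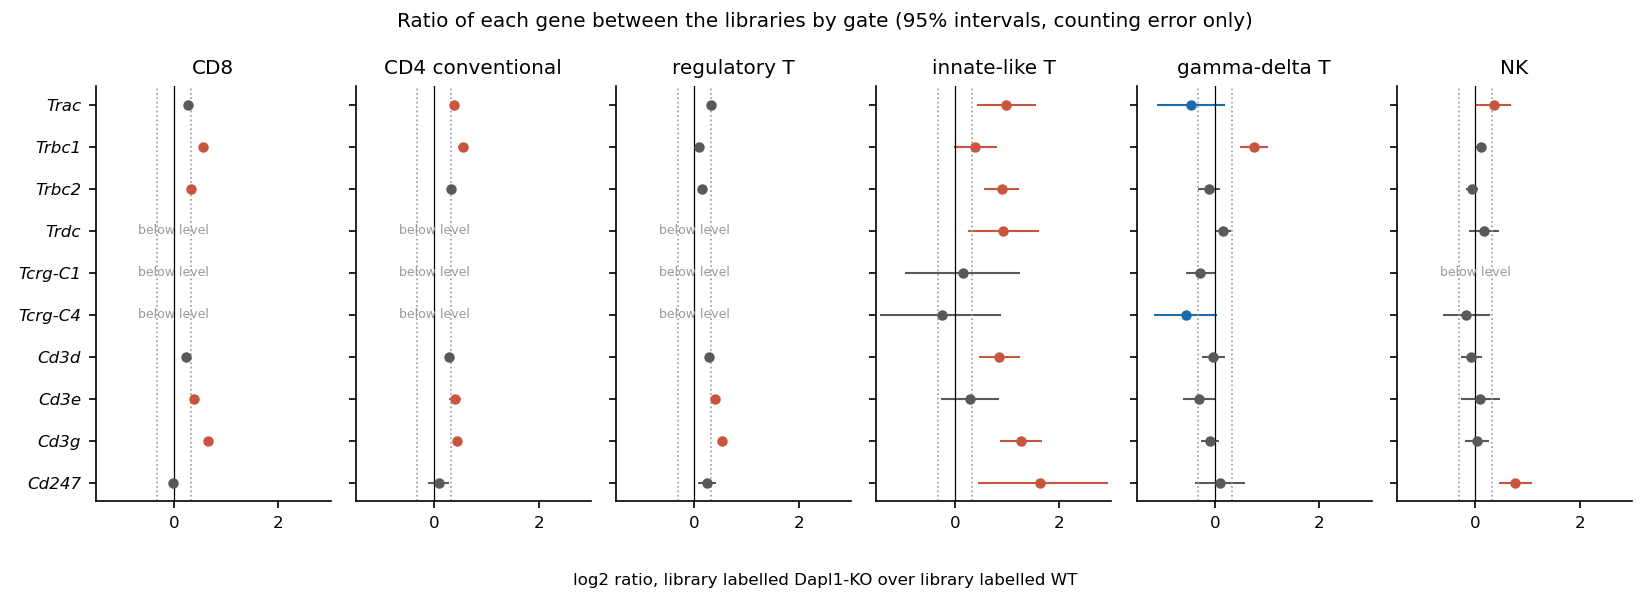
Each panel is 1 gate; the horizontal axis is the log2 ratio of Dapl1-KO to WT levels, the vertical axis lists the 10 genes, bars are exact 95% intervals, dotted lines mark the fold limit (0.32 in size), and red, blue and grey points lie above, below and within it. Cd3g lies right of the limit in CD8 (0.65), CD4 conventional (0.43), regulatory (0.52) and innate-like (1.27) T cells and near 0 in gamma-delta T (-0.094) and NK cells (0.027).

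CD8 cells were split by state with genes outside the 10, because the states were not equally common. Naive-like cells (at least 2 of 4 genes of naive cells, Ccr7 and Lef1 among them, no Pdcd1) made up 30.1% and 16.5% of CD8 cells, PD-1 cells 17.2% and 22.7%, and cells with both PD-1 and TIM-3 messages 34.9% and 41.8%. The remaining 17.7% and 19.1% were in none of these states. Median depths were 7847 and 9486 UMIs in naive-like cells and 22431 and 22796 in PD-1 TIM-3 cells, and a deeper cell is more often seen with Pdcd1 and Havcr2.

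The receptor genes were higher in PD-1 TIM-3 than in naive-like cells, to unequal degrees, in both libraries. Cd3g had 329 and 529.7 CPM in naive-like cells and 980.4 and 1454 CPM in PD-1 TIM-3 cells, a difference of 2.98-fold and 2.75-fold. On average a naive-like cell held 2.85 and 5.46 Cd3g UMIs and a PD-1 TIM-3 cell 27.2 and 39.3. Trac had 255 and 367 CPM in naive-like cells and 506 and 565 CPM in PD-1 TIM-3 cells, 1.99-fold and 1.54-fold. Cd3e differed 1.68-fold and 1.56-fold, Trbc1 1.52-fold and 1.49-fold, Trbc2 1.63-fold and 1.27-fold and Cd3d 1.39-fold and 1.29-fold. Cd247 had 66.6 and 66.6 CPM in naive-like cells and 74.6 and 69.1 CPM in PD-1 TIM-3 cells. Trdc went the other way, with 14.1 and 25.2 CPM in naive-like cells and 1.63 and 4.34 CPM in PD-1 TIM-3 cells.

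Each of the 4 states had more Cd3g in the library labelled Dapl1-KO, with log2 ratios of 0.69 (0.62 to 0.75) in naive-like, 0.64 in PD-1, 0.57 (0.55 to 0.59) in PD-1 TIM-3 and 0.47 in the remaining cells. Trbc1 was past the limit in all 4 states as well, at 0.55, 0.39, 0.52 and 0.71. In naive-like cells 6 of 8 genes at 20 CPM were higher and 0 lower, against 25.5% and 13.8% of all 4068 genes, and in PD-1 TIM-3 cells 2 of 7 were higher and 0 lower, against 10.1% and 7.24% of all 4585 genes. Trac differed more in naive-like cells (0.52, 0.45 to 0.60) than in PD-1 TIM-3 cells (0.16, 0.13 to 0.18), intervals that do not overlap, and so did Trbc2 (0.56 and 0.20). With the 4 states weighted equally, the CD8 count was again 4 higher and 0 lower.

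Cycling cells, with at least 2 of 5 proliferation genes, made up 26.7% and 37.4% of CD8 cells. Cd3g had a log2 ratio of 0.59 in cycling and 0.73 in other CD8 cells, and Trbc1 0.47 and 0.69. Trbc2 differed more outside cycle (0.55) than in it (0.19).

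**Figure D5:**
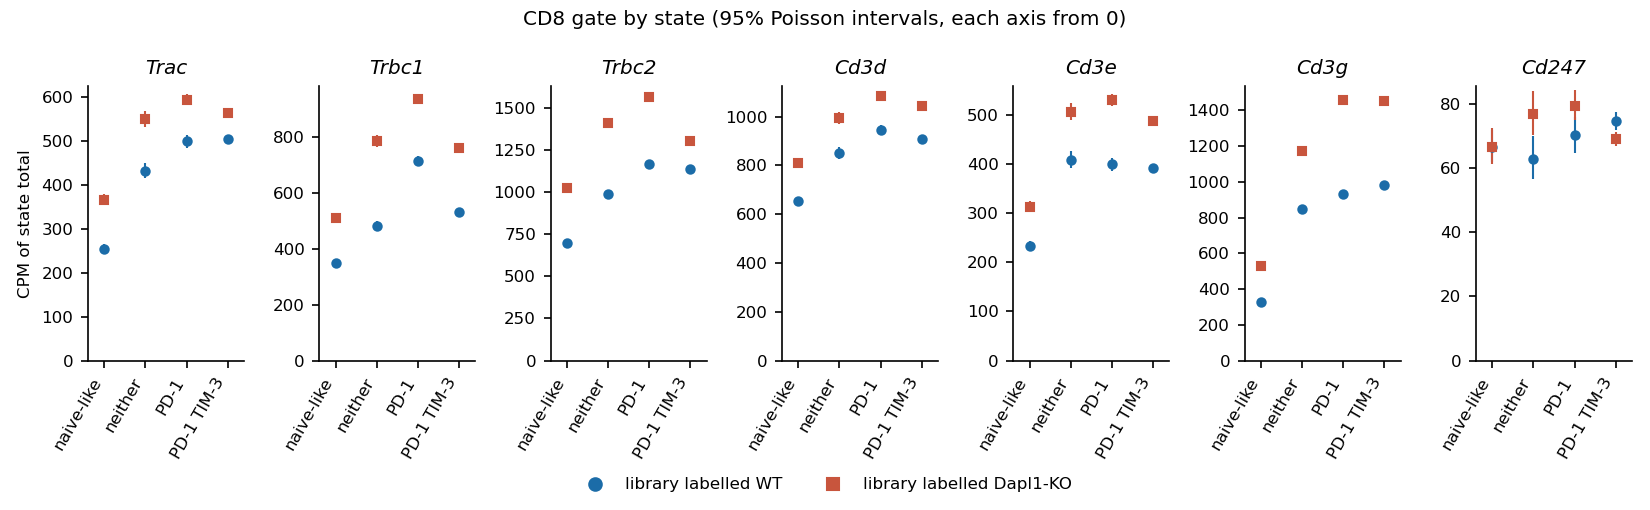
Each panel plots 1 gene: the vertical axis is CPM of the state total from 0, the horizontal axis the 4 CD8 states ("neither" has no Pdcd1 and is not naive-like), with circles for the library labelled WT, squares for the library labelled Dapl1-KO and bars for 95% Poisson intervals, the points of Cd247 in naive-like cells lying on each other. Cd3g is lowest in naive-like cells (329 and 529.7 CPM) and the squares lie above the circles in all 4 states, and Cd247 stays between 62.9 and 79.4 CPM.

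Genes around the receptor were read from fixed lists. Of 25 genes of proximal receptor signalling, 21 reached 20 CPM in CD8 cells, and 6 were higher and 1 lower (median log2 ratio 0.16). Of all genes at that level, 14.3% were higher and 7.34% lower, with a median of 0.063. The list holds Cd8b1, which chose these cells, and Cd4, which the gate excludes. Cd5, a scavenger-receptor family protein that restrains the receptor and follows its signal strength, had 38.8 and 64.1 CPM (0.72), and Ptprcap, a partner of CD45, had 299 and 456 CPM (0.61). Cd8a, the coreceptor alpha chain, had 0.39. Tespa1, an adaptor of thymocyte signalling, was lower, with 22.8 and 11.7 CPM (-0.97). Lck, the kinase that starts the signal, lay inside the limit at 0.16.

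Of 18 brakes of receptor signalling, 17 of them in the files, 13 reached the level and 3 were higher and 0 lower (median 0.23), beside the same 14.3% and 7.34%: Ptpn6, the phosphatase SHP-1, had 32.8 and 54.3 CPM (0.73), the adaptor Sla2 0.57 and the docking protein Dok2 0.47. Of 7 adaptor chains of NK and Fc receptors, 4 reached it and 2 were higher, against the same background. Fcer1g, the Fc receptor gamma chain that can stand in for the zeta chain, had 27.2 and 58.3 CPM (1.10, 1.02 to 1.18), and Tyrobp (DAP12) 19.2 and 36.4 CPM (0.92), beside the NK genes of that gate given above. Tcrg-C2 had 22.7 and 35.0 CPM in CD8 cells (0.62).

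In NK cells 16 of the 25 signalling genes reached 20 CPM, and 5 were higher and 1 lower (median 0.14). Cd8a, Cd8b1 and Cd4, also on the list, are excluded by the NK gate. Of all genes at that level, 13.4% were higher and 9.95% lower, with a median of 0.043, values that also hold for the next 2 lists. The kinase Fyn had 75.6 and 111 CPM (0.56, 0.34 to 0.78), Zap70, which binds the phosphorylated zeta chain, 33.4 and 45.7 CPM (0.45, 0.11 to 0.79), Lck 0.39, and Tespa1 -0.53. Among the brakes, 14 reached it, with 4 higher and 1 lower (median 0.12): Ptpn6 (0.51), Sla2 (0.46) and Dok2 (0.42) were higher and Pag1, an anchor of the inhibitory kinase Csk, lower (-0.60). All 7 adaptor chains reached it and 5 were higher (median 0.40). Sh2d1a, the adaptor SAP, had 145 and 201 CPM (0.47), Tyrobp 1673 and 2225 CPM (0.41) and Fcer1g 1417 and 1814 CPM (0.36).

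The genes most like 4 of the members were taken by Pearson correlation of log2(CPM + 1) over 12 points, the 6 gates in the 2 libraries, among 6459 genes, as a description. The points of 1 library share its depth and free RNA. Among the genes most like Trac were Dynlrb1, Agfg1, Cd6 and Cd5 (0.94 to 0.95), and Cd3e was most like S100a4, Pdcd1, Zdhhc2, Lat and Mxi1 (0.95 to 0.98). Trdc was most like Pde5a, Hspa5, Tcrg-V4, Cd164 and Usp47 (0.94 to 0.97), of which Tcrg-V4 was used to choose the cells. Among the genes most like Cd247 were Orai1, Nfkbib, Rab35 and Irf4 (0.90 to 0.93). Cd3e had 0.98 with both Cd3d and Cd3g and 0.55 with Cd247, and Trac had 0.83 with Trbc2 and 0.28 with Trbc1.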

How the data were processed

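RNA of sorted tumour lymphocytes was measured in 2 single-cell 3′ libraries, grouped by genotype label. The deposited values are raw UMI counts per gene and barcode, with no normalization by the authors. Cell Ranger 5.0.0 and the builds mm10 and GRCm38 are given in the submitters' processing notes. Barcode totals in the deposited tables start at 500 UMIs.

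The 10 genes, the gene lists and the gates were chosen with earlier results of these data known. Where a barcode occurred in both libraries, only a copy with at least 2 times the UMIs of the other was kept (36.0% and 36.4% of barcodes were left out, 21 of them in each library with no larger copy). Cells under 500 genes or over 10% mitochondrial counts were dropped. Scrublet in scanpy 1.11.5 called 0 doublets by its own threshold, so the highest scores at a rate of 0.8% per 1000 cells were removed (876 and 1006 cells). This left 8989 and 10150 cells with medians of 7357 and 8488.5 UMIs.

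Cells were gated in a fixed order by at least 1 UMI of lineage genes, macrophage-, melanocyte-, B cell- and dendritic-like cells first. Counts were summed per gate and library and divided by the gate total (CPM), with exact Poisson intervals. Log2 ratios have exact intervals given the 2 counts, and shares of cells Clopper-Pearson intervals (scipy 1.17.1), each at 95%. A count of 0 was set to a floor of 3 counts in ratios. For shares, cells were thinned to 3000 UMIs and shallower cells left out (90 and 109 CD8 and 9 and 3 NK cells). Named genes are the 10 members, up to 4 per list by size of ratio and the 5 most alike, of which some are not reported here; Lck was added for its role and Tcrg-C2 for its likeness to Tcrg-C1. The ratio step was tested on simulated data for the CD8 gate (4373 genes). All 100 doubled and 100 halved genes passed the fold limit. Intervals held the true value for 92% of doubled, 94% of halved and 94.8% of 4173 unchanged genes. The simulated counts were Poisson, the model that the intervals assume. They check the calculation and not the spread between cells or libraries, nor ratios near the fold limit. Gene positions come from GENCODE for GRCm38, promoters from RefSeq.

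PCR duplicates are collapsed by UMIs, and the 2 libraries' own spread cannot be seen with 1 library each. Alternatives tried were all deposited barcodes, no doublet removal, stricter cell filters (1000 genes, 5% mitochondrial), wider gates, a CD3 UMI in the T gates, thinning, means over cells, scaling by the median ratio, no minimum level and cells with Y-linked messages only. Equal weights for CD8 states and the strict macrophage reference were added after seeing the data.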

Additional observations from a re-analysis of the deposited data

Results flagged for a closer look

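The log2 ratio of Trac between the libraries had opposite signs in different gates, each past the fold limit: 0.39 in CD4 conventional, 0.98 in innate-like T and 0.35 in NK cells, and -0.46 in gamma-delta T cells. The difference between the gates was not tested, the interval of the gamma-delta value includes 0 (-1.12 to 0.20), and the gamma-delta gate rests on 45 and 38 Trac counts.

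Cells in no gate, which enter no comparison above, held Trac and Trdc above the macrophage reference in both libraries. Trac had 445 CPM (437 to 453) in the library labelled WT and 509 CPM (500.4 to 517) in the library labelled Dapl1-KO, against 34.1 and 17.4 CPM in the reference. Trdc had 40.5 CPM (38.3 to 42.9) and 74.5 CPM (71.3 to 77.7), against 19.0 and 15.7 CPM. A UMI of Cd3d, Cd3e or Cd3g was present in 90.1% and 88.6% of these 2956 and 2751 cells, at median depths of 5339 and 6280 UMIs.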

How the results depend on the processing

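No paired analysis was possible because each label has 1 library. Of 58 counts of genes past the fold limit under the alternatives, 49 stayed within 1.5 times the reported count. The share of all genes past the limit was not counted under the alternatives. In CD8 cells (4 reported) the count was 2 with all deposited barcodes and 2 with median-of-ratios scaling. In regulatory T cells (2 reported) it was 1 with all deposited barcodes, 4 with no minimum level and 7 in cells with Y-linked messages and no Xist, on 22 cells of the library labelled WT. In NK cells (2 reported) it was 1 with stricter cell filters, 1 as a mean over cells, 1 with median-of-ratios scaling and 7 in cells with Y-linked messages and no Xist, on 17 cells of the library labelled WT. The cause was not tested. Of 520 log2 ratios, 423 stayed within the counting interval of the reported value and 94 moved out of it. Among the 22 ratios past the fold limit, signs turned for Trbc1 in innate-like T cells when thinned (-0.46), Trac in gamma-delta T cells in the wider gate (0.032) and Trac in NK cells with Y-linked messages and no Xist (-0.46), and 16 of the 38 others turned in at least 1 alternative. The Y-linked setting was not run in the innate-like and gamma-delta gates, which hold 4 and 1 such cells in the library labelled WT. Cd3g in CD8 cells ran from 0.49 to 1.13 and Trbc1 there from 0.45 to 0.69 over 10 alternatives. Median-of-ratios scaling shifts all log2 ratios of a gate by at most 0.075 in size. Depth limits the innate-like and gamma-delta gates most, with 284806 to 732241 UMIs each.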
